A study of Sus scrofa with 21 samples.

Results

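Cytosolic ribosomal protein genes were followed through the testis transcriptomes of 21 breeding boars. They were taken as the rows of the count tables whose pig gene symbol is RPL or RPS followed by a number and at most 1 letter, together with the stalk genes RPLP0, RPLP1 and RPLP2, and a gene was kept when it reached 1 CPM (a gene's reads scaled to a common number of reads counted on genes) in at least 11 of the 21 libraries. Of 25880 genes counted, 14857 carried a symbol, 47 matched and 46 were kept, 24 of the small and 22 of the large ribosomal subunit. RPL3L, the muscle paralog of RPL3, had a median of 14 reads and was left out. A further 31 symbols of the same form in the RefSeq annotation had no identifier in the table that names the rows, and these genes were not analysed here.

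The study asked how gene expression in the testis relates to sperm hyperactive motility, the vigorous swimming that spermatozoa acquire before fertilization. Testis was collected at slaughter from Landrace and Duroc boars used for artificial insemination, with 1 library per boar. Contrast (i) compared 4 Landrace boars whose fresh semen (day 0) showed low hyperactivity (L1 to L4) and 4 whose fresh semen showed high hyperactivity (L5 to L8). Contrast (iii) compared 4 Landrace boars with a low change in hyperactivity over 96 h of semen storage (L2, L9, L10 and L12) and 3 with a high change (L7, L13 and L15), so L2 and L7 served in both. Contrast (ii) compared 5 Duroc boars labelled High (D1 to D5) with 3 labelled Low (D6, D7 and D9). Matched by boar name, the study's own list gives 7 of these 8 Duroc boars the opposite group, and a direction in Duroc is therefore that of the deposited labels only.

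The cytosolic ribosome translates nuclear-encoded messenger RNA. Its small subunit reads the message and its large subunit joins the amino acids, and each ribosome holds each of its proteins in a fixed number of copies. The messages of ribosomal proteins share a pyrimidine-rich start, through which mTORC1 signalling adjusts their translation together. In the testis the X chromosome is silenced while germ cells pass through meiosis, and an autosomal paralog, RPL10L, stands in for the X-linked RPL10 there. Whole testis mixes germ cells of all stages with Sertoli, Leydig and other somatic cells, and fewer cells of a type and less RNA per cell cannot be told apart in these libraries.

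Libraries held 41358671 to 125576407 reads counted on genes. The 46 genes took 0.703 to 1.18% of these reads, and the gene with the fewest reads, RPS15, had a median of 677 per library against 71395 for RPLP0. The lowest count of any of them in any library was 210. Reads that aligned to more than 1 place were left out when the authors counted, and ribosomal protein genes have many near-identical processed copies in mammalian genomes, so the values cover only the part of each gene that is unique in the assembly and are compared between boars, not between genes. Of the germ cell markers, 8 of 8 for spermatocytes and 9 of 10 for elongating spermatids were over 1 CPM, the other having no named row. For spermatogonia 5 of 8 were, and the sums were 69.5 to 145 CPM, against 1106 to 2234 CPM for spermatocytes. Sums of somatic markers reached 4461 CPM for Leydig and 1958 CPM for Sertoli cells, whereas macrophage markers summed to at most 21.6 CPM.

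The ribosomal protein genes moved unequally in contrast (i). Their summed level was 9203 to 11260 CPM in the low boars and 8923 to 9650 CPM in the high boars, so the groups overlapped, and the means were 10210 ± 979 (SD, n = 4) and 9274 ± 345 (SD, n = 4). Of the 46 genes, 18 were lower in the high hyperactivity group with an adjusted p under 0.05 (edgeR, quasi-likelihood), or 39.1%, while 15.8% of the 12979 genes tested were lower. None was higher, against 4.82% of genes tested, although 3 reached an unadjusted p under 0.05 (17.5% of all genes). DESeq2 called 3 higher, and in either direction it called 3922 of all genes, against 2682 with the quasi-likelihood test. The likelihood ratio test called 19 lower and 2 higher, RPL7 and RPS4X, where 18.7% and 7.66% of all genes were. Both subunits contributed 9 of the 18. The median log2 fold change of the 46 genes was -0.34, and that of all genes tested was 0.03. Below 0 were 30 of the 46 and 47.9% of all genes. With libraries scaled within the contrast, in 17 of the genes the high boars were all below the low boars, which held for 18.6% of all genes, and in 1 they were all above, which held for 10.5%.

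This count depended on which boars were included. It fell to 0 without L3 and to 0 without L6, where the smallest adjusted p of any of the 46 genes was 0.0504 and 0.0532 (edgeR), and it was 10 without L1. Of all genes, 1 passed without L3, 1 without L6 and 966 without L1, against 2682 with every boar included. When any of the other 5 boars was left out, between 14 and 23 of the 46 were lower. In those fits between 1228 and 3764 of all genes passed in either direction. Higher calls appeared without L5, where 18 were lower and 5 higher and 3764 of all genes passed. They also appeared without L8, where 14 were lower and 1 higher and 1228 of all genes passed.

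**Figure D1:**
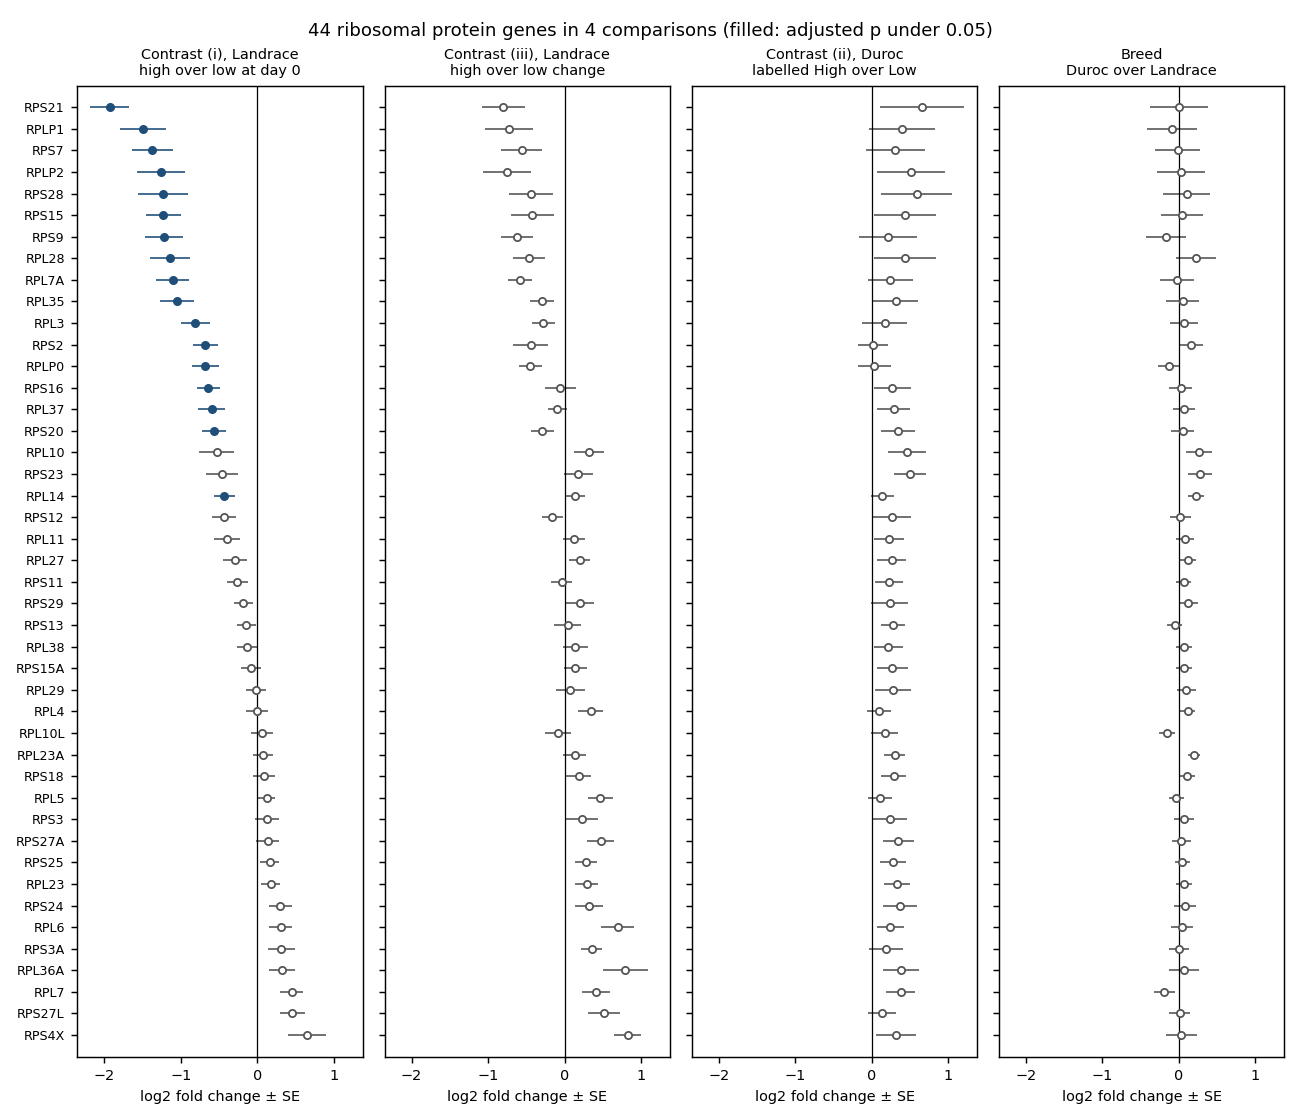
Log2 fold change (points) and its standard error (bars) of 44 of the 46 ribosomal protein genes in each of the 4 comparisons, ordered by contrast (i) and filled where the adjusted p was under 0.05. The 17 filled points stand in contrast (i) only, from -1.93 for RPS21 to -0.43 for RPL14, and the breed values stay between -0.19 and 0.27.

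RPS21, a protein of the small subunit, had the lowest fold change and the smallest p of the 46 genes. In the Sscrofa11.1 assembly the gene spans 61763606 to 61764823 on chromosome 17. Its level was 22.8, 17.2, 23.8 and 25.8 CPM in the low boars L1 to L4 and 5.15, 4.57, 8.79 and 4.55 CPM in the high boars L5 to L8. The groups did not overlap, and L7 came nearest to the low boars. The log2 fold change was -1.93 (SE 0.25, adjusted p = 0.0208, edgeR). It kept its sign when each boar was left out, between -2.23 and -1.82, and 2 of those 8 fits put the adjusted p over 0.05.

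The ribosomal stalk, the flexible arm of the large subunit that recruits elongation factors, is built from RPLP0 and dimers of RPLP1 and RPLP2, and all 3 genes were lower. RPLP1 was at 77.4, 60.7, 66.6 and 86.3 CPM in the low boars and at 28.9, 17.1, 41.2 and 14.3 CPM in the high boars, a log2 fold change of -1.49 (SE 0.30, adjusted p = 0.0208, edgeR). RPLP2 was at 41.5, 25.9, 32.3 and 33.7 CPM in the low boars and at 13.6, 8.59, 23.6 and 8.66 CPM in the high boars. For the stalk base RPLP0 the low boars ranged from 1383 to 1703 CPM and the high boars from 782 to 1250 CPM. For neither gene did the groups overlap, and the log2 fold changes were -1.26 (SE 0.31) and -0.68 (SE 0.18), with adjusted p of 0.0237 and 0.0265 (edgeR). Within the stalk, RPLP0 therefore fell by less than RPLP1 and RPLP2 on the log2 scale, a difference that was not tested.

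Among the other small subunit genes, RPS7, whose protein also binds MDM2, ran from 73.7 to 119 CPM in the low boars and from 25.8 to 55.5 CPM in the high boars, with a log2 fold change of -1.37 (SE 0.27, adjusted p = 0.0208, edgeR). RPS15, which takes part in export of the small subunit from the nucleus, was at 15.6, 10.9, 14.3 and 15.4 CPM in the low boars and at 5.19, 4.74, 8.42 and 5.23 CPM in the high boars, a log2 fold change of -1.23 (SE 0.23). RPS28, RPS9, RPS2, RPS16 and RPS20 were also lower, with log2 fold changes of -1.23, -1.22, -0.68, -0.64 and -0.57.

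Of the 28 genes without a call, 12 had a log2 fold change below 0 and 16 above 0, from -0.53 to 0.65. RPS23 and RPS12 were at -0.46 and -0.43, RPS27A, whose protein is made as a fusion with ubiquitin, was at 0.14, and RPL6 and RPS3A were at 0.30 and 0.31.

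On the large subunit, RPL7A was at 368 to 442 CPM in the low boars and at 124 to 245 CPM in the high boars, a log2 fold change of -1.11 (SE 0.22, adjusted p = 0.0208, edgeR). RPL3, a protein next to the peptidyl transferase centre, was at 131 to 146 CPM in the low boars and at 54.6 to 106 CPM in the high boars, a log2 fold change of -0.81 (SE 0.19, adjusted p = 0.0219, edgeR). RPL28, RPL35, RPL37 and RPL14 were the remaining members lower in this group, at -1.14, -1.05, -0.60 and -0.43. Of RPL5 and RPL11, which travel to the ribosome together with a small ribosomal RNA, neither passed, with log2 fold changes of 0.12 (adjusted p = 0.421, edgeR) and -0.39 (adjusted p = 0.101, edgeR).

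**Figure D2:**
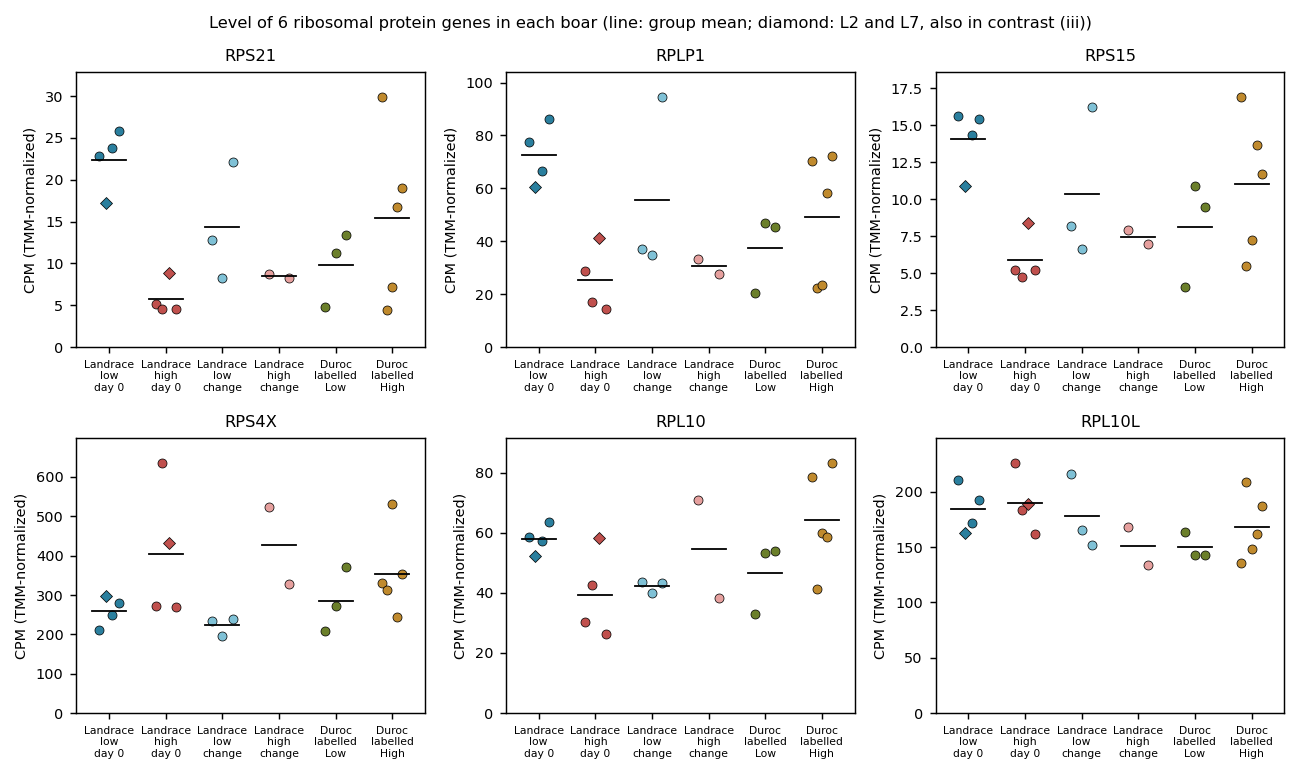
TMM-normalized level in CPM of RPS21, RPLP1, RPS15, RPS4X, RPL10 and RPL10L in each of the 21 boars by group, with L2 and L7, which also belong to contrast (iii), as diamonds in their day 0 groups and means of the points shown as lines. RPS21 ran from 4.55 to 8.79 CPM in the high day 0 boars and from 17.2 to 25.8 CPM in the low ones, whereas RPL10L spanned 134 to 226 CPM over all boars.

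In contrast (i) the quasi-likelihood test called none of the 3 X-linked genes. RPS4X, a small subunit protein encoded on both sex chromosomes in humans, lies on chromosome X from 58149302 to 58155179. It was at 212, 297, 249 and 280 CPM in the low boars and at 273, 636, 433 and 270 CPM in the high boars, and L6 and L7 stood above the rest while L5 and L8 lay within the low range. Its log2 fold change, 0.65 (SE 0.25, adjusted p = 0.0744, edgeR), was the highest of the 46. It passed with the likelihood ratio test (adjusted p = 0.0446, edgeR), with DESeq2 (adjusted p = 0.0273), without a filter on low counts, relative to the sum, and without L5 or L8, and its adjusted p ran from 0.0273 to 0.2 over all alternatives. RPL10, a late-assembling protein needed before the subunits can join, was at 52.3 to 63.6 CPM in the low boars and at 26.4 to 58.3 CPM in the high boars, with a log2 fold change of -0.53 (SE 0.22, adjusted p = 0.0971, edgeR). RPL36A was at 36.5 to 46.1 CPM and 33.8 to 60.5 CPM, and its log2 fold change was 0.32 (adjusted p = 0.166, edgeR). It has a near-identical copy, RPL36AL, so its reads are uncertain.

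The paralogs are given beside their partners. RPL10L, on chromosome 1 from 176603177 to 176604116, was at 163 to 211 CPM in the low boars and at 162 to 226 CPM in the high boars, a log2 fold change of 0.07 (SE 0.14, adjusted p = 0.738, edgeR). There were 3.01 to 3.60 RPL10L reads for each RPL10 read in the low boars and 3.25 to 7.50 in the high boars, and the difference of the log2 ratios did not pass the test (difference 0.67, two-sided exact permutation test, p = 0.0571, where 4 against 4 boars allow no less than 0.0286). RPS27L, a p53-responsive paralog of RPS27, was at 26.9 to 38.3 CPM in the low boars and at 35.6 to 54.8 CPM in the high boars, with a log2 fold change of 0.46 (SE 0.17, adjusted p = 0.0646, edgeR). RPL7, an RNA-binding protein of the large subunit, had a log2 fold change of 0.45 (SE 0.15, adjusted p = 0.0514, edgeR) and was the gene whose high boars, at 628 to 912 CPM, were all above the low boars, at 465 to 602 CPM. The adjusted p of RPL7 was over 0.05 in 3 of 9 alternative tests, scalings and filters and in 7 of 8 fits with 1 boar left out.

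The spread among the 46 genes was also examined relative to their own sum. With each library scaled by the summed ribosomal protein counts, 17 genes fell in the high boars of contrast (i) and 5 rose, while 12.4% and 15.9% of all genes were lower and higher. RPS21, RPS7, RPLP1, RPS15 and RPL7A had the smallest p among the 17 (adjusted p = 0.0265 for each, edgeR), and the relative log2 fold changes of the first 4 were -1.83, -1.26, -1.38 and -1.12. The 5 higher genes, singled out after their values were seen, were RPS4X at 0.76, RPS27L at 0.59, RPL7 at 0.57, RPS3A at 0.45 and RPS24 at 0.43, with adjusted p between 0.0265 and 0.0481 (edgeR). This scaling raised the median log2 fold change of all genes to 0.15. None of the 46 passed without L3, L4, L6 or L8, where 0, 0, 1 and 0 of all genes passed. Without L1, 8 of the 46 and 871 of all genes passed, against 3680 of all genes with every boar included.

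Most of the 18 lower genes had few reads. Their mean counts per library had a median of 3710, against 14990 for the other 28, and 8 of the 10 genes with the fewest reads were among them. RPLP0, with the most reads of all, was an exception. Over the 46 genes, Spearman's rho between mean count and log2 fold change in contrast (i) was 0.63, and over all 12979 genes tested it was 0.43. Genes of 1 library are not independent of each other, and these counts are not scaled to transcript length. The 18 genes lay on 10 chromosomes, with 4 on chromosome 6 and 3 each on chromosomes 1 and 2.

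**Figure D3:**
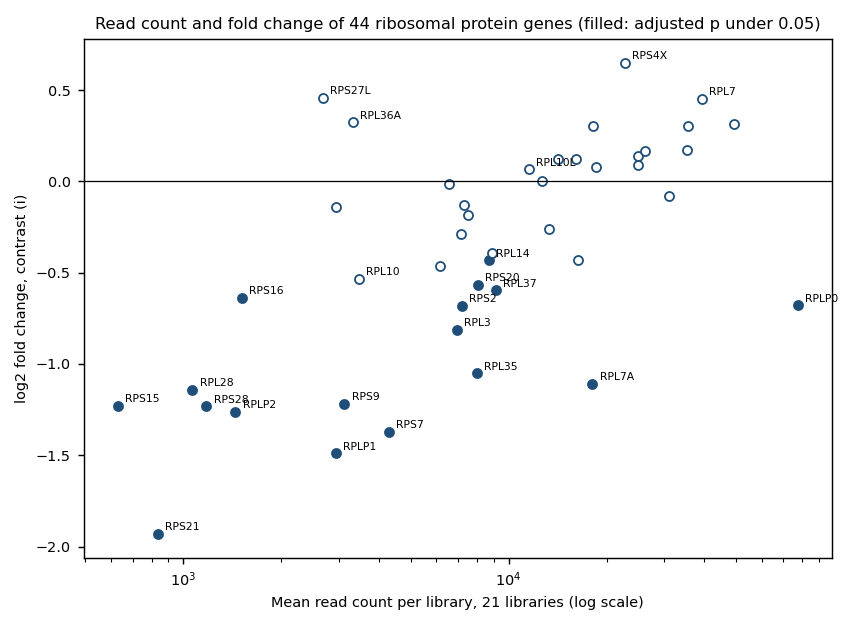
Mean read count per library over the 21 libraries (log scale) against the log2 fold change of contrast (i) for 44 of the 46 genes, filled where the adjusted p was under 0.05. Genes with fewer reads lie lower (Spearman's rho 0.63 over all 46), with RPS27L, RPL36A and RPLP0 away from this order.

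The 18 genes were then followed in all boars. Because contrast (i) chose them, their difference there is a description: the mean log2 CPM of the 18 less that of the other 28 was -1.39 to -1.11 in the low boars and -2.71 to -1.95 in the high boars. In the boars that took no part in the choice, it was -1.73, -1.70 and -0.97 in L9, L10 and L12 of the low change group and -2.48 and -1.90 in L13 and L15 of the high change group. In Duroc it ran from -2.51 in D2 to -1.29 in D1, and both boars carry the label High. The groups labelled High and Low had means of -1.78 ± 0.60 (SD, n = 5) and -1.77 ± 0.26 (SD, n = 3).

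The spread of these genes was also described in boars outside contrast (i). Over the 8 Duroc boars the median SD of log2 CPM was 0.569 for the 18 genes and 0.287 for the other 28, beside 0.315 for all genes. Over the 5 Landrace boars that served in contrast (iii) only, it was 0.404, 0.292 and 0.331. RPS21 varied most, with an SD of 0.976 over the Duroc boars, where its highest level, 29.9 CPM in D1, was 6.69 times its lowest, 4.47 CPM in D2. RPL5 varied least there, with an SD of 0.157.

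**Figure D4:**
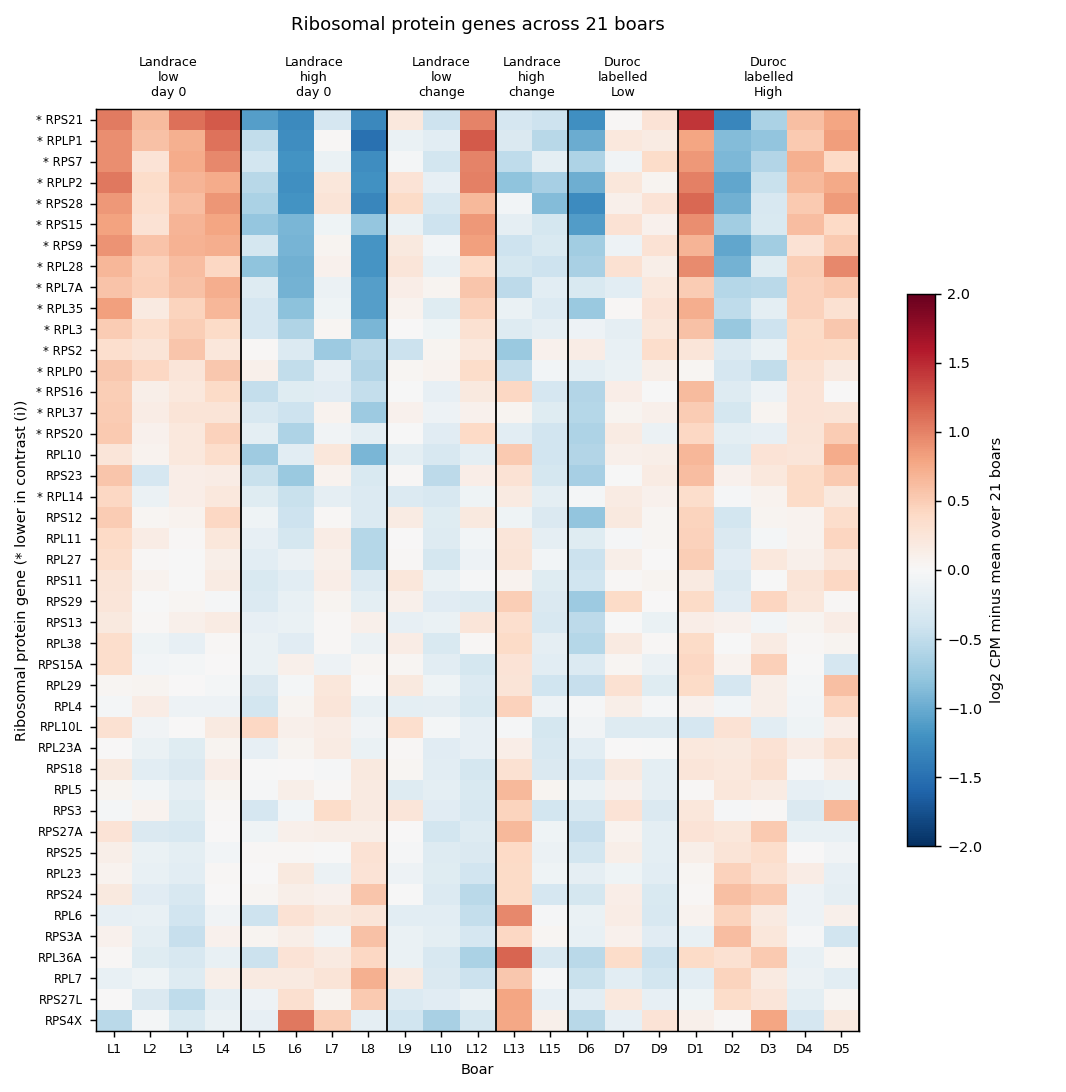
Log2 CPM of 44 of the 46 ribosomal protein genes (rows, ordered by contrast (i), those lower there starred) in each of the 21 boars (columns), less the gene's mean over the boars. The starred genes are low together in L6, L8, D2 and D6 and high together in L1, L4, L12 and D1. Among the rows at the bottom, RPS4X is highest in L6, RPL36A and RPS27L in L13, RPL7 in L8 and RPS3A in D2.

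Other measures moved with contrast (i). The share of alignment records that were not unique was 7.53 to 7.92% in the low boars and 5.83 to 7.20% in the high boars, without overlap (difference -1.01 percentage points; by an exact two-sided permutation p = 0.0286, which is the floor for 4 against 4 boars). Gene read totals were 53644587 to 77217140 and 64052547 to 97059970 and overlapped. Summed spermatocyte markers were at 1106 to 1450 CPM in the low and 1444 to 2234 CPM in the high boars, with 1 of 8 genes called higher. Round spermatid markers were at 1001 to 1176 and 1130 to 1726 CPM with 1 of 5 called lower, and elongating spermatid markers at 9790 to 13990 and 11280 to 14670 CPM with 4 of 9 called lower. Peritubular markers were at 48.5 to 110 and 16.9 to 60.5 CPM with 2 of 4 called lower. Sertoli markers summed to 920 to 1412 CPM in the low and 701 to 1157 CPM in the high boars, Leydig markers to 1677 to 2134 and 460 to 4461 CPM, endothelial markers to 21.1 to 34.1 and 10.4 to 28.7 CPM, spermatogonial markers to 77.3 to 125 and 74.5 to 103 CPM, and macrophage markers to at most 10.7 and 14.7 CPM. No marker of these 5 lists was called in either direction. The part of these measures in the ribosomal protein values was not tested.

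**Figure D5:**
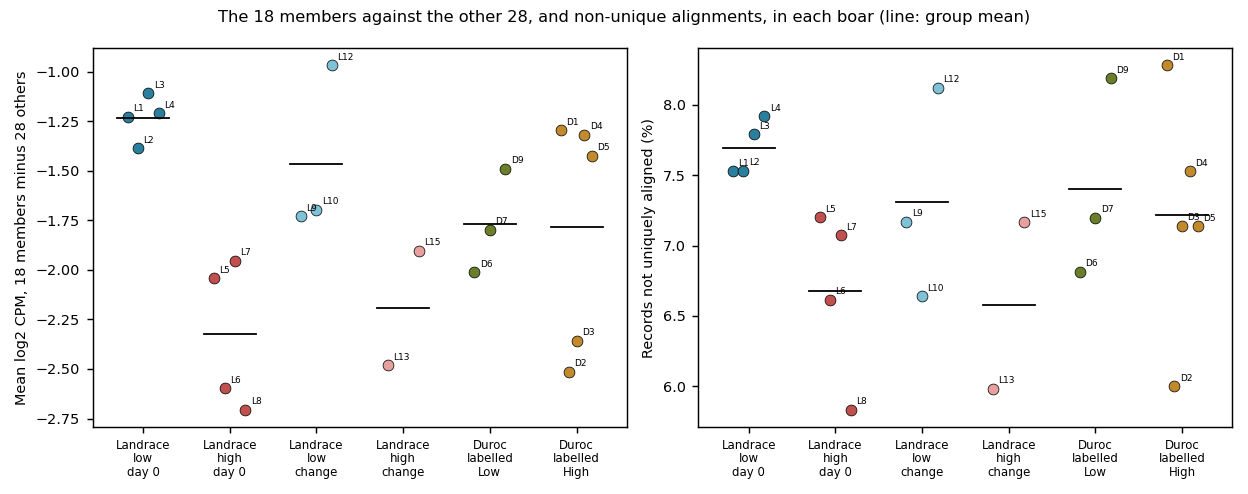
Left, mean log2 CPM of the 18 genes lower in contrast (i) less that of the other 28, and right, the percentage of alignment records that were not unique, in each boar by group, with L2 and L7 in their day 0 groups and means of the points shown as lines. L8, L13 and D2 are low in both panels, at -2.71, -2.48 and -2.51 on the left and 5.83, 5.98 and 6% on the right, and L12 and D1 are high in both. The panels differ for D3, at -2.36 and 7.14%, and for L10, at -1.70 and 6.64%.

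In contrast (iii) no gene passed, and neither did any of the 46 (0 of 12824 genes tested, percent called 0; edgeR). The smallest adjusted p was 0.24. At an unadjusted p under 0.05, 6 were lower and 8 were higher, where 10.3% and 9.5% of all genes were. The likelihood ratio test called 1 higher, RPS4X (0.343% of all genes), and DESeq2 called 1 higher, where it called 116 of all genes in either direction. With libraries scaled within the contrast, groups did not overlap in 2 lower genes (8.92% of all genes) and 5 higher ones (7.34%). On the scale of all 21 libraries RPS27L, one of the 5, overlapped. The median log2 fold change of the 46 was 0.10 and that of all genes 0.00345, and 21 of the 46 and 49.6% of all genes were below 0. With 1 boar left out, the median of the 46 ran from -0.01 without L13 to 0.21 without L15. The summed level was 8199 to 9577 CPM in the low change group and 8435 to 11150 CPM in the high change group, and its highest value came from L13.

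RPS4X had the highest fold change and the smallest p in contrast (iii). It was at 297, 234, 196 and 239 CPM in L2, L9, L10 and L12 and at 433, 525 and 329 CPM in L7, L13 and L15, so the high change boars were all above the others. The log2 fold change was 0.83 (SE 0.18, adjusted p = 0.24, edgeR; adjusted p = 0.0142 with the likelihood ratio test). RPL36A followed with 0.79 (SE 0.30) and RPL6, a large subunit protein, with 0.70 (SE 0.21). For both, L13 was the highest of all 21 boars, at 102 and 501 CPM, and without L13 the log2 fold changes were 0.29 and 0.37. L13 also had the lowest summed elongating spermatid markers of all boars, 6376 CPM, followed by L15 with 7779 CPM. These markers summed to 6376 to 11870 CPM in the high change group and 11080 to 14200 CPM in the low change group, and all 9 had a log2 fold change below 0 (median -0.57), none of them called (edgeR). All 6 Leydig, 4 endothelial and 3 macrophage markers had a log2 fold change above 0 (medians 0.58, 0.43 and 0.80), none called (edgeR). The remaining lists had values on both sides of 0. L13 also had the highest summed macrophage markers of all boars, 21.6 CPM. The part of the markers in the values of contrast (iii), RPS4X included, was not tested.

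RPS21, RPLP2 and RPLP1 were lowest in contrast (iii), at -0.80 (SE 0.29), -0.75 (SE 0.32) and -0.72 (SE 0.32), none past the threshold (adjusted p = 0.24, 0.245 and 0.247, edgeR). With 1 boar left out, these values ran from -0.99 to -0.56, from -1.16 to -0.51 and from -0.89 to -0.37. RPS21 was at 17.2, 12.8, 8.30 and 22.1 CPM in the low change boars and at 8.79, 8.79 and 8.28 CPM in the high change boars, and the groups overlapped through L10. RPL3, RPL10, RPL10L and RPS27L had log2 fold changes of -0.28, 0.32, -0.09 and 0.52, again not past the threshold. The 2 Landrace contrasts share L2 and L7, so their values are not independent.

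In Duroc, contrast (ii) gave no call for any gene (0 of 13043 tested, percent called 0; edgeR, likelihood ratio test and DESeq2). All 46 log2 fold changes were above 0, from 0.02 for RPS2 to 0.66 for RPS21, with a median of 0.28, where 41.2% of all genes were below 0 and the median was 0.04. At an unadjusted p under 0.05 only RPS23, a decoding centre protein, was higher (log2 fold change 0.50, SE 0.21), while 0.874% of all genes were, and none was lower, while 0.337% of all genes were. RPL23A was the one gene whose groups did not overlap, all High boars being above (0.744% of all genes). Summed levels were 10020 to 10800 CPM in the boars labelled High and 7514 to 9533 CPM in those labelled Low, without overlap, and D6 had the lowest sum of all 21 boars. Elongating spermatid markers did not overlap either, at 11540 to 13110 CPM in the boars labelled High and 11010 to 11500 CPM in those labelled Low. The log2 fold changes of the 4 peritubular markers were 0.44 to 0.61 and those of the 4 endothelial markers 0.31 to 0.78, none called (edgeR), and the sums of both lists overlapped. The part of these markers in the ribosomal protein values was not tested. Without D6, the median was 0.14 and 43 of the 46 were above 0. With libraries scaled by the summed ribosomal protein counts, 30 were above 0.

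RPS21 was at 29.9, 4.47, 7.16, 16.8 and 19.0 CPM in the Duroc boars labelled High and at 4.73, 11.2 and 13.4 CPM in those labelled Low, so the lowest and the highest boar were both labelled High. Its log2 fold change was 0.66 (SE 0.55, adjusted p = 1, edgeR). RPS28 and RPLP2 followed with 0.59 (SE 0.46) and 0.51 (SE 0.44), and RPLP0 and RPL4, a protein lining the exit tunnel, were near 0 with 0.04 (SE 0.21) and 0.09 (SE 0.16). RPS4X, RPL10, RPL36A, RPL10L, RPS27L and RPL3 had log2 fold changes of 0.32, 0.46, 0.39, 0.17, 0.13 and 0.17. The 95% intervals of 36 of the 46 lay within 1 log2 unit of 0.

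Whether the Landrace difference at day 0 and the Duroc difference by label were unlike was tested with an interaction of breed and label over the 16 boars, a test chosen after the data were seen. None of the 46, and none of the 12920 genes tested, passed (percent called 0; edgeR). At an unadjusted p under 0.05 there were 24 of the 46, where 15.1% of all genes were. RPS21 had the smallest p, with a Duroc log2 fold change 2.58 above that of Landrace (SE 0.67, adjusted p = 0.329, edgeR). These differences take the Duroc direction from the labels. With all 8 Duroc labels turned, 10 of the 46 had an unadjusted p under 0.05, where 19.8% of all genes did, none passed, and the difference for RPS21 was 1.29 (SE 0.65, adjusted p = 0.259, edgeR). The study's own list also places D5 in the high group, and turning all 8 labels moves it to the low group. This fit therefore has neither the deposited grouping nor that of the study's list, and the latter was not tested.

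Between breeds none of the 46 genes was called. With 8 Duroc against 13 Landrace boars, 355 of 12835 genes passed (2.77%; 1.48% lower and 1.29% higher in Duroc), and 0 of the 46 did (edgeR). The likelihood ratio test, with 2.02% of all genes lower and 1.85% higher, called 0 of them, as did DESeq2. None passed relative to their sum either, where 1.21% of all genes were lower and 0.927% higher. At an unadjusted p under 0.05, 2 were higher in Duroc, where 6.16% of all genes were, and 0 lower, where 6.02% were. Below 0 were 9 of the 46 and 52% of all genes. The log2 fold changes, Duroc over Landrace, ran from -0.19 for RPL7 to 0.27 for RPS23, and all 46 of the 95% intervals lay within 1 log2 unit of 0, between -0.775 and 0.777. The summed level was 9690 ± 1037 CPM (SD, n = 8) in Duroc and 9550 ± 969 CPM (SD, n = 13) in Landrace.

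RPL23A, an attachment point for factors at the tunnel exit, had the smallest p between breeds. Its lowest, median and highest levels were 236, 307 and 340 CPM in Duroc and 219, 249 and 305 CPM in Landrace, with a log2 fold change of 0.19 (SE 0.08, adjusted p = 0.274, edgeR). RPL10 and RPL28 were the next highest after RPS23, at 0.26 (SE 0.18) and 0.23 (SE 0.26), and RPS9 and RPL10L the next lowest after RPL7, at -0.17 (SE 0.26) and -0.16 (SE 0.10). For RPS21 the lowest, median and highest values were 4.47, 12.3 and 29.9 CPM in Duroc and 4.55, 8.79 and 25.8 CPM in Landrace, and the log2 fold change was 0.00116 (SE 0.38). RPS4X, RPL36A, RPS27L and RPL3 stood at 0.03, 0.07, 0.01 and 0.07. Outside the naming rule, RPSA, a small subunit protein also known as a laminin receptor, was higher in Duroc (log2 fold change 0.37, SE 0.07, adjusted p = 0.00319, edgeR).

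Genes that work with the ribosome were described beside it in contrast (i), where 15.8% of all genes tested were lower and 4.82% higher. None of 6 ribosomal proteins and paralogs outside the naming rule passed there, with log2 fold changes from -0.56 for FAU, a fusion of a small subunit protein, to 0.37 for RPL7L1. Of 32 translation factors, 6 were lower and 4 higher, and the 4 with the smallest p were the elongation factors EEF1D at -1.60 and EEF2 at -0.77, EIF6, which keeps subunits apart, at -0.95, and the initiation factor subunit EIF3D at -0.95. Ribosome biogenesis genes gave 6 lower and 2 higher of 36, led by TCOF1 (-1.12), BYSL (-1.11), BOP1 (-1.28) and NOP10 (0.56). In the mTORC1 pathway 5 of 8 were lower and none higher, with the kinase MTOR at -0.83, its inhibitor TSC2 at -1.14, and the complex members RPTOR and MLST8 at -1.15 and -1.32. Mitochondrial ribosomal proteins, which belong to another ribosome, gave 8 lower and 2 higher of 59, led by MRPL38 (-1.38), MRPS11 (-1.03), MRPL49 (-0.87) and MRPS18A (-0.92). All named genes of these lists but the 6 outside the naming rule had an adjusted p under 0.05 (edgeR), and the medians of the 5 lists were -0.24, 0.05, -0.00076, -0.63 and 0.00242, beside 0.03 for all genes. In contrasts (iii) and (ii) 0 genes of these 5 lists were called, as for all genes (edgeR).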

How the data were processed

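The authors prepared stranded mRNA libraries from testis, used Trimmomatic 0.36 for trimming, STAR for alignment to Sscrofa11.1 and HTSeq for counting per Ensembl gene. The deposited values are raw counts, 1 file per boar, without normalization. The 5 HTSeq summary rows, which name no gene, took 29.4 to 39% of records and were left out. Records that aligned to several places were not counted for any gene.

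Groups came from the deposited labels. Members and lists were chosen with earlier results of these data known. Genes over 1 CPM in 4 or more libraries (contrasts) or 11 or more (breed) were kept, TMM-normalized and tested with edgeR 4.0.16 in R 4.3.3 (quasi-likelihood, Benjamini-Hochberg over all genes tested, threshold 0.05); the authors used a likelihood ratio test, run here as an alternative with DESeq2 1.42.0, other scalings and filters and each boar left out. Levels are CPM with TMM factors over the 21 libraries. SE came from the fold change and its test statistic. A second fit scaled libraries by the summed members. Members named are RPS21, RPS4X, X-linked genes, paralogs and partners, the smallest p and 3 highest and lowest fold changes per comparison, and up to 5 called relative to the sum. Other members were named after their values were seen, to account for them or for their role. From other lists, up to 4 genes with the smallest p were named, and the lowest and highest of the proteins outside the naming rule. The levels per length that were planned could not be computed without transcript lengths. Coordinates are from RefSeq for Sscrofa11.1, matched by symbol for all 46 members.

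Pairs of boars within a group were compared, and none were duplicates (34 pairs, Pearson's r of log counts 0.949 to 0.985, chi-square per degree of freedom 57.2 to 372). Nothing in the labels says more of the boars' relatedness, and p-values measure the spread between these boars. Fits were tested on simulated data. Sequences were not used here. Of the members, 2 are counted in totals but not reported individually here.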

Additional observations from a re-analysis of the deposited data

Results flagged for a closer look

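For 22 named ribosomal protein genes and their sum, 115 groups of 4 to 8 boars were searched for a boar far from the others, and 5 such groups were found, where chance gives about 1 in 20, or 5.75. In the high group of contrast (i), L7 stood above the other 3 boars for RPS21, at 8.79 CPM against 4.55 to 5.15, and for RPS15, at 8.42 CPM against 4.74 to 5.23. In the same group L5 stood below the others for RPL6, at 193 CPM against 294 to 313, and L8 above them for RPL7, at 912 CPM against 628 to 668. Among the 8 Duroc boars, D5 stood above the others for RPL4, at 249.5 CPM against 178 to 202.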

How the results depend on the processing

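The number of ribosomal protein genes called in contrast (i) in either direction, 18, stayed between 17 and 22 under the other tests, scalings and filters run, and ran from 0 to 23 when 1 boar was left out. It was 0 without L3 or L6 and 10 without L1, where 1, 1 and 966 of all genes passed. DESeq2 called 18 lower and 3 higher, where it called 3922 of all genes. With total counts in place of TMM, 19 lower and 0 higher and 2562 of all genes passed, and the median of all genes moved to -0.12. Called relative to their own sum, the 22 genes ran from 0 to 23 with 1 boar left out, while all genes called ran from 0 to 4179. The log2 ratio of summed levels in contrast (i), -0.12, was -0.27 with total counts and -0.06 without a filter on low counts. With 1 boar left out it ran from -0.21 without L3 to -0.08 without L1. In contrast (iii), 1 gene in place of 0 passed with the likelihood ratio test and 1 with DESeq2, and 1 passed relative to the sum with the likelihood ratio test. Of all genes, 64, 116 and 26 passed in these fits. Calls in contrast (ii) and between breeds were 0 in all alternatives run. The cause was not tested.

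Of the named genes' fold changes, those that changed sign had no call. In contrast (i), RPL10L was at -0.084 with total counts and from -0.035 to 0.15 with 1 boar left out, and in contrast (iii) from -0.21 to 0.044. In contrast (ii), scaling by the sum gave -0.10 for RPL10L, -0.11 for RPS27L, -0.092 for RPL3, -0.25 for RPS2, -0.22 for RPLP0 and -0.16 for RPL4. RPS2 was at -0.0049 with DESeq2 and with relative log expression, -0.017 without a filter and from -0.099 to 0.15 with 1 boar left out, and RPLP0 at -0.00362 without a filter and from -0.064 to 0.13. Between breeds, RPS21 was at -0.013 with DESeq2, -0.014 with relative log expression, -0.037 scaled by the sum, -0.022 without a filter, -0.000528 with 1 CPM in at least 8 libraries, -0.065 with the day 0 Landrace boars only, -0.027 without L13 (added after the data were seen), and from -0.27 to 0.13 with 1 Duroc boar left out. RPS4X was at -0.00284 scaled by the sum, -0.00676 with day 0 boars only and from -0.10 to 0.10 with 1 boar left out. RPS27L was at -0.00493 scaled by the sum, -0.00928 without a filter, -0.024 with the boars of contrast (iii) only and from -0.041 to 0.040. RPL36A was at -0.00297 with the boars of contrast (iii) only, and RPL3 from -0.012 to 0.16 with 1 boar left out.

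No paired analysis was possible because the labels number boars individually and no number is shared between groups. Within breeds the precision rests on 3 to 5 boars a group.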

Other observations

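Between breeds, a few genes of the ribosome's surroundings passed although no cytosolic ribosomal protein of the naming rule did. MRPL30, a large subunit protein of the mitochondrial ribosome, was higher in Duroc (log2 fold change 1.18, SE 0.13, adjusted p = 1.01e-05, edgeR), and MRPL13 and MRPS22 were lower (-0.42 and -0.44, adjusted p = 0.0409 and 0.0484, edgeR), so 3 of 59 mitochondrial ribosomal proteins passed where 2.77% of all genes did. POLR1E, a subunit of the RNA polymerase that makes ribosomal RNA, was lower in Duroc (-0.69, SE 0.11, adjusted p = 0.000739, edgeR), as was LSG1, a factor that matures the large subunit in the cytoplasm (-0.33, SE 0.09, adjusted p = 0.0484, edgeR). Among the cell type markers, and named after their values were seen, KIT, the receptor of differentiating spermatogonia and Leydig cells, was lower in Duroc (-1.40, SE 0.23, adjusted p = 0.000804, edgeR), and GATA4, a transcription factor of Sertoli and Leydig cells, was higher (0.74, SE 0.16, adjusted p = 0.00764, edgeR). Each was the only marker called of its list, KIT of 5 spermatogonial and GATA4 of 7 Sertoli markers. The medians of these lists were 0.03 and 0.14, and their values ran from -1.40 to 0.32 and from -0.39 to 0.74. No translation factor of 32 and no mTORC1 gene of 8 passed between breeds.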
